A study of Mus musculus with 30 samples.

Results

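Long intergenic noncoding RNAs (lincRNAs) are transcripts made from their own genes between coding genes and not translated into a known protein. The genes described here are those that the authors' gene tables type as lincRNA, without the imprinted transcripts Meg3, Mirg and H19, which left 167 lincRNAs among 20842 genes with a probe set of their own. The rule also leaves out Rian and Dnm3os, which the tables do not type as lincRNA. Of the 167, 165 were found in the RefSeq gene table (GRCm38.p6): 140 are annotated there as lncRNA, 17 as protein-coding, and 8 as pseudogenes or other RNAs, so the authors' type is an older annotation. Being typed as lincRNA uses no measured value, and all 167 were tested with no filter on low values.

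RNA was taken at embryonic day 9.5 from mouse embryos of 19 to 21 somite pairs, and each array held 1 pool of tissue from embryos of 1 genotype, gathered over at least 5 litters. The 2 tissues were OFT-RV, which is the outflow tract joined to the right ventricle, and the anterior second heart field (aSHF), the progenitor tissue behind the heart tube that adds cells to it. Mutants were Mef2c-AHF-Cre/+; Dgcr8 f/f, in which a Cre driven by a Mef2c enhancer of the anterior heart field deletes Dgcr8, and the group labelled wild-type was Dgcr8 f/+ without Cre. The wild-type embryos therefore also carried a floxed allele, only the mutants carried Cre (so Cre and the deletion cannot be told apart), and cells of the dissected tissue in which this enhancer is silent keep Dgcr8. Each of the 4 groups had 4 mRNA arrays, with values on the log2 scale, and the tissues had been normalized separately (array medians 6.13 to 6.19 in OFT-RV and 7.47 to 7.54 in aSHF), so levels were tested only within a tissue.

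Dgcr8 binds primary miRNA transcripts and, with Drosha, cuts the precursor hairpins out of them, so a lincRNA whose transcript holds a miRNA is a direct substrate of this complex. Other lincRNAs act as RNAs in the nucleus, as Xist does when it coats the inactive X chromosome and Malat1 in nuclear speckles, or in the cytoplasm, as Norad does by binding Pumilio proteins. In RefSeq none of the 165 located lincRNAs spans a miRNA gene, and 2 span a snoRNA gene (Dancr with Snora26, and Gm10754). Meg3, Mirg and H19, left out by name beforehand, are not part of this count. What was measured here is thus the response of lincRNAs with no annotated miRNA of their own.

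The promoters of 3 lincRNAs on which the results turn, and a near copy of 1 of them, are given from RefSeq (GRCm38.p6), each running 250 bases before to 50 after the annotated start. 1700110I01Rik, the 1 lincRNA that passed the test of mutant change, has the window chr14:3262152-3262451 on the plus strand. It is set beside the closest window elsewhere on the same chromosome, that of Gm10410 at chr14:4930253-4930552 on the plus strand, with capitals for the bases that are not matched in the other.
1700110I01Rik: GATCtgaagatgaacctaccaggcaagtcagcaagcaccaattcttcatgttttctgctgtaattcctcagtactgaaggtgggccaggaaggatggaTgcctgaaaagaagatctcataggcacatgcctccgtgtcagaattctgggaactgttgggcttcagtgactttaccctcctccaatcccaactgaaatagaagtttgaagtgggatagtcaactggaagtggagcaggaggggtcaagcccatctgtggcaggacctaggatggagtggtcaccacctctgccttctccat
Gm10410: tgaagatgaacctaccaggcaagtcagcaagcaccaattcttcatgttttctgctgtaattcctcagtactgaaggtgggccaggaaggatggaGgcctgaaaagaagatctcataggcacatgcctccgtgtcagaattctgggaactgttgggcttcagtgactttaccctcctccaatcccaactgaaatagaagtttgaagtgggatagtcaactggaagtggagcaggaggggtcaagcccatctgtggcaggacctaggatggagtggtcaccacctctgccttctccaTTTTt
The 2 windows match at 295 of 304 aligned positions (97.0%). Of the 154 other promoter windows in this run of genes, 6 (of 6 genes, none measured here under its own name) matched the window of 1700110I01Rik at 95.8 to 97.0%, and the next matched at 75.2%.

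Lncpint, which had among the smallest p-values in both tissues, has the window chr6:31218425-31218724 on the minus strand. E130006D01Rik, which differed most in rank between the tissues, has the window chr5:111761679-111761978 on the minus strand. Capitals mark CG dinucleotides, by whose density promoters are classed as CpG-rich or CpG-poor.
Lncpint: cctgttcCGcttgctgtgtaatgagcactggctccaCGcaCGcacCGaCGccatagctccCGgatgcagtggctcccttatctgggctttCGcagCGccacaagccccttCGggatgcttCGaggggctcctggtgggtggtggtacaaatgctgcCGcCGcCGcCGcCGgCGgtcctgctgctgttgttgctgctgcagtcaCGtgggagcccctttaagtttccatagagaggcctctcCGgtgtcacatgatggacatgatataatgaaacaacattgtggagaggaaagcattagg
E130006D01Rik: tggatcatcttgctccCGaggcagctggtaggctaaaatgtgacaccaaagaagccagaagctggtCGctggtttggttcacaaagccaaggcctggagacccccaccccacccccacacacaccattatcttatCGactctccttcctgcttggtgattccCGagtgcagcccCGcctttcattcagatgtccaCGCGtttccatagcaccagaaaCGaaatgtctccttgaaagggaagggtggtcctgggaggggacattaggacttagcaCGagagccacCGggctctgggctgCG
Lncpint's window holds 18 CG and that of E130006D01Rik 11. Windows were given for 133 of the lincRNAs (140 windows), with a median of 4 CG, equal to the median of 4 over all lncRNA windows and below the 13 of protein-coding genes. Of the lincRNA windows 23.6% held 10 CG or more, against 43.5% of all windows, so Lncpint and E130006D01Rik stand in the CpG-rich minority.

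The lincRNAs sat low on the arrays. Within each array every gene was given its percentile rank among the 20842 genes, a scale that also depends on how well each probe set binds and is used here as a description. The median lincRNA had a wild-type percentile of 27.2 in OFT-RV and 24.4 in aSHF, with quartiles of 12.8 and 39.1 in OFT-RV and 14.6 and 35.3 in aSHF. Below the median of all probe sets, called dim here, were 134 lincRNAs in OFT-RV (80.2%, against 44.5% of all genes) and 139 in aSHF (83.2%, against 44.1%). Whether these values were at background was not tested.

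A few lincRNAs reached the top of the range in both tissues. In wild-type OFT-RV the highest were 1810058I24Rik, at percentile 95.4 and annotated as protein-coding in RefSeq, Xist at 89.7, Malat1 at 84.7, 6330403K07Rik (also protein-coding in RefSeq) at 81.1, and 2900097C17Rik, the gene of Norad, at 76.0. In wild-type aSHF they were Malat1 at 92.5, Xist at 89.4, 1810058I24Rik at 88.3 and Norad at 87.5, followed after a gap by 6330403K07Rik at 67.5. Lncpint stood at 37.1 in OFT-RV and 28.6 in aSHF. Hottip, made from the end of the Hoxa cluster beside Hoxa13, stood at 11.97 in OFT-RV and 16.8 in aSHF, and Pantr1, beside the neural gene Pou3f3, at 4.9 and 11.3, both among dim probe sets.

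Ranks differed between the tissues for 25 of the 167 lincRNAs (15%), counting those whose 4 and 4 wild-type arrays did not overlap and whose means differed by at least 10 percentile points; over all genes this was 25.1%. Of the 25, 15 ranked higher in OFT-RV (8.98% of lincRNAs, against 12.2% of all genes) and 10 higher in aSHF (5.99%, against 12.9%). Among the 23 lincRNAs that were not dim in either tissue 3 met the rule (13%, against 29.5% of such genes). That count depends on the scale: it was higher when the 23 were ranked among such genes only, as the last section gives. In the mutants 26 lincRNAs met it (15.6%, against 25.7% of all genes), and 22 did so in the same direction in both genotypes (13.2%, against 23.4%). In the mutants 14 ranked higher in OFT-RV (8.38%, against 12.6%) and 12 higher in aSHF (7.19%, against 13.1%).

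E130006D01Rik, an unstudied transcript whose nearest coding gene is Mn1, had the widest gap. Its percentiles were 62.9, 61.3, 62.9 and 62.3 on the wild-type OFT-RV arrays, against 17.2, 17.6, 19.6 and 17.95 on the wild-type aSHF arrays. The difference was 44.2 points, and 46 points between the mutant tissues. Mn1 itself differed the other way, by -22.0 points.

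AC157516.1, near the collagen gene Col12a1, had percentiles of 41.8, 35.2, 37.1 and 34.6 in wild-type OFT-RV, against 3.8, 3.5, 4.2 and 2.9 in wild-type aSHF. All 4 OFT-RV arrays were above all 4 aSHF arrays, which lay near the floor, by 33.6 points in the mean. The next by size were D930016D06Rik (26.9 points), annotated in RefSeq as the coding gene Thoc2l, BC002059 (26.02), Platr26 (18.6), a transcript named for its link to pluripotency in mouse embryonic stem cells, Rbakdn (17.2), 9230019H11Rik (16.7, protein-coding in RefSeq) and 2700046A07Rik (16.6). The called lincRNA of the mutant comparison, 1700110I01Rik, was also among the 15, by 10.8 points in wild-type and 17.5 points in mutant tissue.

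In the other direction AI504432, made just beside the potassium channel gene Kcna3, had percentiles of 9.98, 5.4, 4.4 and 6.8 in wild-type OFT-RV, against 40.4, 39.1, 42.7 and 42.7 in wild-type aSHF. Its mean difference was -34.6 points, and -32.4 points between the mutant tissues. E330013P04Rik followed at -24.5 points, with 9.94, 10.4, 9.96 and 9.63 in OFT-RV, against 35.9, 30.4, 34.7 and 37.0 in aSHF. In both genes the OFT-RV arrays were near the floor and the groups were well apart. Smaller gaps were those of 2700046G09Rik (-17.5), which overlaps Sgms1, B230354K17Rik (-14.03), A330008L17Rik (-12.7), Norad (-11.4), 1700018A04Rik (-10.99) and Gm10857 (-10.1).

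A measured nearest coding gene was found for 150 lincRNAs, 21 of them among the 25. For 6 of the 21 the neighbour also met the rule (28.6%, against 25.1% of all genes), in the same direction as the lincRNA in 3. One of these 3 was the pair Pvt1 and Myc, the growth-promoting transcription factor, at -10.03 and -18.3 points, and another AC157516.1 and Col12a1, at 33.6 and 13.5 points. Over all 150 pairs the differences in rank of lincRNA and neighbour had a Spearman correlation of 0.06 and a Pearson correlation of 0.02, where the points share the same 8 arrays.

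**Figure D1:**
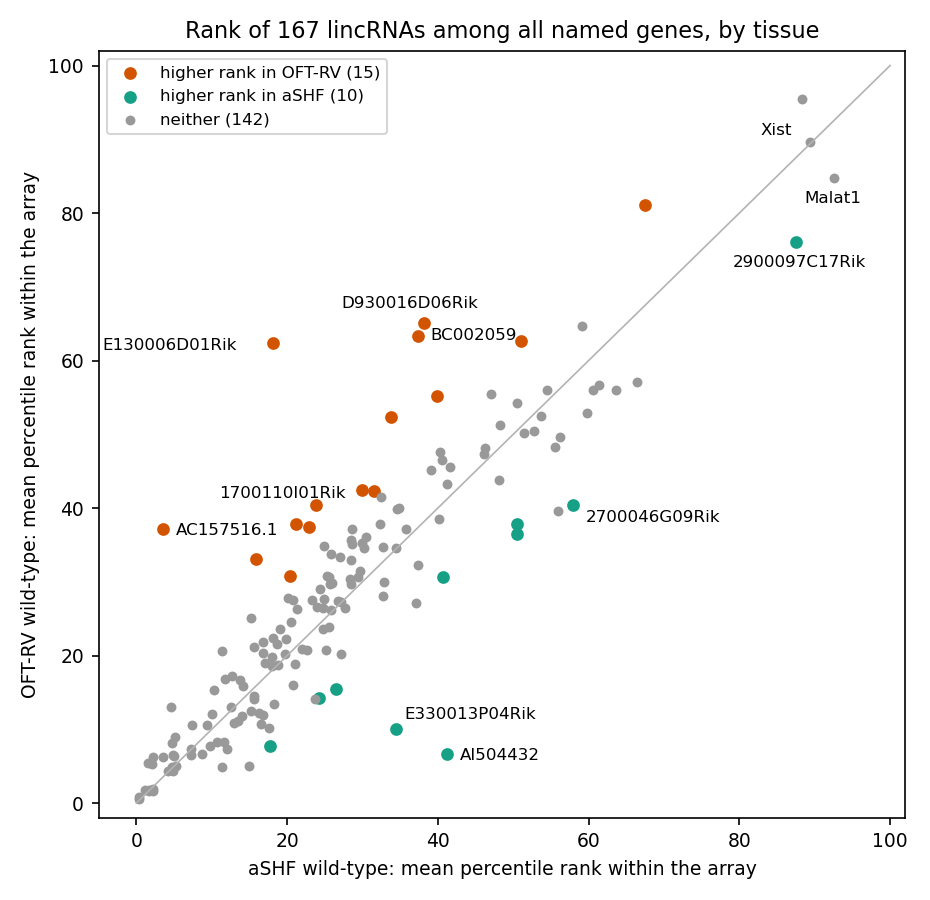
Mean percentile rank of each of the 167 lincRNAs within the 4 wild-type OFT-RV arrays (vertical axis) and the 4 wild-type aSHF arrays (horizontal axis), out of 20842 genes; the line marks equal ranks. Orange points (15) ranked higher in OFT-RV and green points (10) higher in aSHF by the rule in the text; most lincRNAs lie in the lower left, and E130006D01Rik (62.3 against 18.1) and AI504432 (6.6 against 41.2) lie farthest from the line.

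Few lincRNAs differed between mutants and wild-type by more than the spread between arrays. With limma's test over all 20842 genes and Benjamini-Hochberg adjustment, 1 lincRNA passed an adjusted p of 0.05 in OFT-RV (0.599% of 167, against 0.446% of all genes, 93; it was higher, as were 0.432% of all genes) and none in aSHF (against 0.178% of all genes, 37). At an unadjusted p under 0.05 there were 9 lincRNAs in OFT-RV (5.39%, against 5.83% of all genes) and 4 in aSHF (2.4%, against 2.66%). In OFT-RV 3 of the 9 were higher (1.8%, against 2.64%) and 6 lower (3.59%, against 3.2%), and in aSHF 2 were higher (1.2%, against 1.52%) and 2 lower (1.2%, against 1.14%). Mutant and wild-type arrays did not overlap for 6 lincRNAs in OFT-RV (3.59%, against 3.59% of all genes) and 3 in aSHF (1.8%, against 1.62%). By all of these counts the lincRNAs were called about as often as any other gene.

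The targeted gene moved as the labels say in OFT-RV, where Dgcr8 was 7.63, 7.77, 7.73 and 7.65 in mutants, against 8.22, 8.06, 7.98 and 8.16 in wild-type (-0.41 ± 0.06, log2 change ± SE, adjusted p = 0.0075; exact two-sided permutation p = 0.0286, the smallest that 4 against 4 arrays allow). In aSHF the arrays overlapped (-0.12 ± 0.05, adjusted p = 0.98; exact permutation p = 0.0571). Whether fewer cells or less RNA per cell underlies a difference cannot be told apart in pooled tissue. Markers were checked against the tissue labels: 7 cardiomyocyte genes had a mean percentile of 99.5 in wild-type OFT-RV and 70.9 in aSHF, and 6 second heart field genes 60.4 and 78.9. None of the 42 marker genes for 8 cell types passed limma's test in either tissue. At an unadjusted p under 0.05 there were 6 in each tissue (14.3%, against 5.83% of all genes in OFT-RV and 2.66% in aSHF). In OFT-RV Epb42 and Krt18 were higher and Cldn5, Twist1, Tcf21 and Nefl lower. In aSHF Epb42 and Fgf8 were higher and Stmn2, Nefl, Foxa2 and Tbx18 lower. All 6 erythroid genes were higher in the mutant mean in both tissues (median 0.07 in OFT-RV and 0.14 in aSHF, log2). Of 5 endothelial genes 1 was higher in OFT-RV and 0 in aSHF. Of 4 neural crest genes 0 were higher in OFT-RV and 3 in aSHF. Over all genes 42.9% were higher in OFT-RV and 57.9% in aSHF. The part of other cells in the lincRNA values was not tested.

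The 1 lincRNA that rose was 1700110I01Rik on chromosome 14, a lncRNA gene of no known function. In OFT-RV it read 6.26, 6.24, 6.40 and 6.41 in mutants, against 6.10, 6.02, 6.01 and 5.97 in wild-type. Every mutant array was above every wild-type array, by 0.30 ± 0.05 in log2 (1.23-fold, adjusted p = 0.0373). In aSHF it read 6.62, 6.65, 6.72 and 6.58 in mutants, against 6.67, 6.67, 6.76 and 6.69 in wild-type, and these overlapped (-0.05 ± 0.05, adjusted p = 0.98).

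The difference between its changes in OFT-RV and aSHF was tested in a fit of all 4 groups and was 0.36 ± 0.07 in log2 (adjusted p = 0.0441), and did not pass with same-numbered arrays of 1 genotype in both tissues as a block (adjusted p = 0.112). It was the 1 lincRNA called by that test (0.599%, against 0.211% of all genes, 44), with 7 lincRNAs at an unadjusted p under 0.05 (4.19%, against 5.08%). Both calls sit close to the threshold. The OFT-RV call was lost when any of 6 of the 8 arrays was left out in turn (adjusted p 0.0384 to 0.17), and the difference between tissues when any of 12 of the 16 was (0.0299 to 0.141). In the authors' deposited table the adjusted p of 1700110I01Rik in OFT-RV is 0.155.

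1700110I01Rik lies in a run of genes, most of them named only by Gm numbers, at the start of chromosome 14. RefSeq lists 182 genes in the stretch examined, of which 24 others were measured, all typed as protein-coding in the authors' tables. This run was looked at after the change of 1700110I01Rik was seen, so its values are given without a test of the group. All 24 were higher in the OFT-RV mutants, by 0.10 to 0.40 in log2 (median 0.21), against 42.9% of all genes, and in 11 the arrays did not overlap, against 3.59% of all genes. None passed on its own (lowest adjusted p = 0.142, Gm2897), and 21 had an unadjusted p under 0.05, against 5.83% of all genes.

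Gm3500 had the highest of these changes, 0.40 ± 0.13 in log2, followed by Gm2897 at 0.27 ± 0.06, Gm3636 at 0.27 ± 0.10 and Gm10409 at 0.27 ± 0.07. In aSHF 19 of the 24 were lower and 5 higher in mutants, between -0.12 and 0.06, where 57.9% of all genes were higher. After each group's mean was removed, the 24 correlated with 1700110I01Rik over the 16 arrays at 0.04 to 0.79 (median 0.35). The 6 genes whose promoter windows nearly equal that of 1700110I01Rik were not measured under their own names. These windows lie mostly before the annotated start, and neither transcript nor probe sequences were compared. Whether the reading of 1700110I01Rik includes other copies was therefore not tested. Whether probes are shared among the 25 measured genes was not tested.

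**Figure D2:**
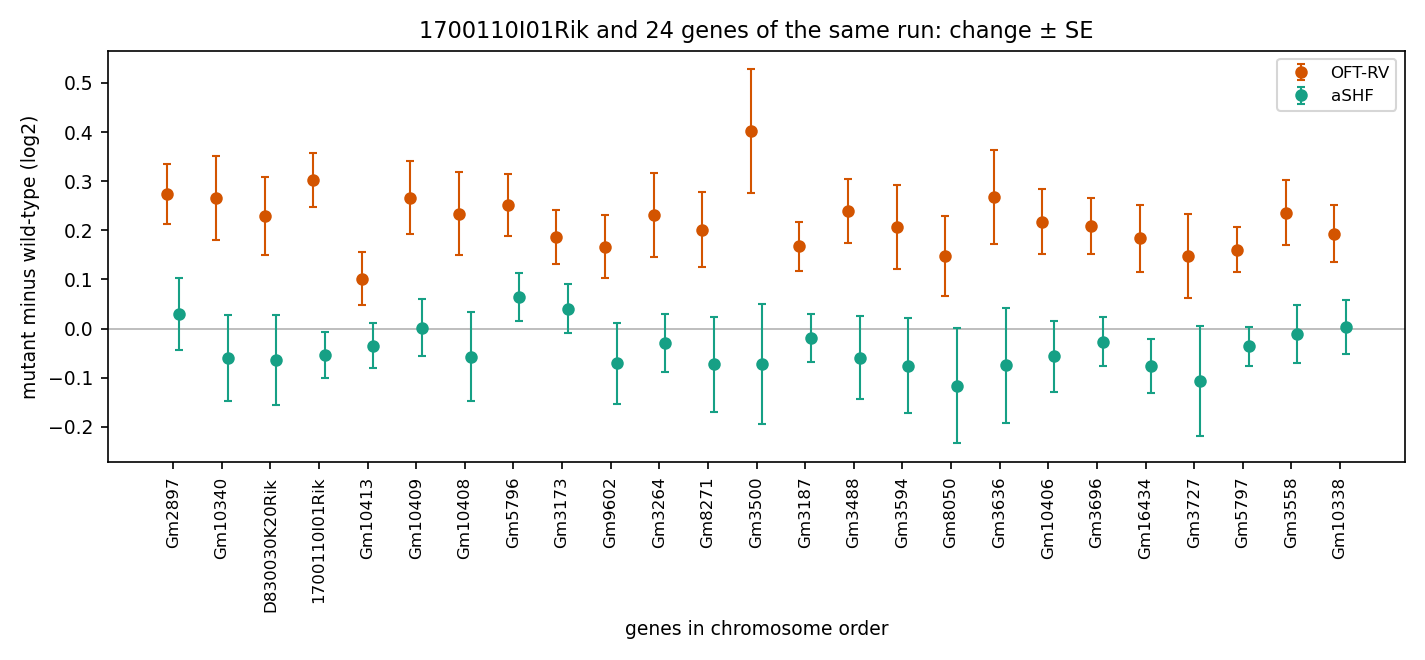
Mutant minus wild-type change (log2, points, with SE as bars) of 1700110I01Rik and 24 measured genes of the same run, in chromosome order, in OFT-RV (orange) and aSHF (green). All 25 OFT-RV values lie above 0, from 0.10 to 0.40, while the aSHF values lie between -0.12 and 0.06.

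The 3 lincRNAs whose residuals, after group means were removed, were most like those of 1700110I01Rik over the 16 arrays were A430110L20Rik (r = 0.73), AC157516.1 (0.56) and 2700046G09Rik (0.55). AC157516.1 is among the lincRNAs that rank higher in OFT-RV, and 2700046G09Rik among those that rank higher in aSHF.

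Lncpint, a p53-induced transcript in mouse that is known to bind Polycomb proteins, had mutant and wild-type arrays that did not overlap in either tissue. Of all genes 3.59% did not overlap in OFT-RV and 1.62% in aSHF. The share of all genes that did so in both tissues was not counted. In OFT-RV it read 5.80, 5.92, 5.91 and 5.98 in mutants, against 5.68, 5.79, 5.76 and 5.72 in wild-type. The mutant arrays were all above the wild-type arrays, by 0.17 ± 0.05 in log2, without passing the test (limma adjusted p = 0.49). In aSHF it read 6.71, 6.66, 6.75 and 6.68 in mutants, against 6.44, 6.63, 6.57 and 6.42 in wild-type, a change of 0.18 ± 0.06 (limma adjusted p = 0.98). Its changes in the 2 tissues differed by -0.01 (adjusted p = 0.99).

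The miRNA genes closest to Lncpint are Mir29b-1 at 30.5 kb and Mir29a at 30.8 kb. The mature forms share a seed, in capitals, and the pair is shown because both miRNA genes passed the test in OFT-RV, where Lncpint did not.
mmu-miR-29a-3p: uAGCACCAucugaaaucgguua
mmu-miR-29b-3p: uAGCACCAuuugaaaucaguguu
Mir29b-1 read 4.73, 4.63, 4.67 and 4.78 in OFT-RV mutants, against 3.64, 3.72, 3.89 and 3.71 in wild-type, a rise of 0.96 ± 0.06 in log2 (adjusted p = 2.8e-06). Mir29a rose by 0.67 ± 0.08 (adjusted p = 0.0020). In wild-type OFT-RV they stood at percentiles 0.19 and 1.34, at the floor of the arrays, so the sizes of these rises are not well measured. In aSHF they differed by 0.04 ± 0.04 and 0.09 ± 0.04 (adjusted p = 0.98 for each), and the difference between tissues passed for both (adjusted p = 2.9e-07 for Mir29b-1 and 0.0122 for Mir29a). In aSHF both genes stood at percentiles of 0.10 to 1.12 in both genotypes, near the arrays' lowest values, so their differences there are not well measured. Probe sets of a miRNA gene read the primary or precursor RNA.

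On the miRNA arrays neither mature product passed the test over 1908 mature miRNAs. miR-29b-3p averaged 0.86 ± 0.12 in OFT-RV mutants and 0.64 ± 0.12 in wild-type (SD, n = 3 each), and miR-29a-3p 1.19 ± 0.06 and 1.11 ± 0.08, close to the median of 0.85 over all probe sets of those arrays. Values at this height are near background, and a change of either mature form was not detectable here. Other lincRNAs with a miRNA gene within 50 kb numbered 9, among them Hottip with Mir196b.

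The remaining lincRNAs with the smallest p-values in OFT-RV did not pass. 9930038B18Rik read 4.99, 5.22, 5.21 and 5.12 in mutants, against 5.23, 5.49, 5.44 and 5.37 in wild-type (-0.25 ± 0.07, adjusted p = 0.35). Platr26 read 6.43, 6.30, 6.45 and 6.44 in mutants, against 6.49, 6.58, 6.85 and 6.79 in wild-type (-0.28 ± 0.08, adjusted p = 0.39). E130006D01Rik, the lincRNA with the widest tissue gap, read 7.47, 7.58, 7.57 and 7.54 in mutants, against 7.42, 7.27, 7.37 and 7.38 in wild-type (0.18 ± 0.05, adjusted p = 0.36). In each of these 3 the arrays of the groups did not overlap, and in Platr26 the closest were 6.45 in mutants and 6.49 in wild-type.

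The lower OFT-RV values went on with 4932435O22Rik (-0.18), 1700018A04Rik (-0.14), which lies near the forkhead gene Foxq1, 4933413J09Rik (-0.13), 5031425E22Rik (-0.18), which overlaps Kmt2e, Gm9866 (-0.10) and AY512931 (-0.10). The higher ones went on with AC166112.1 (0.11), 1700017G19Rik (0.13), Gm6639 (0.08), 2410017I17Rik (0.08) and Pvt1 (0.08). Their adjusted p-values ran from 0.45 to 0.97.

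In aSHF the smallest p-value after that of Lncpint was that of 2410018L13Rik, on chromosome 12. It read 8.38, 8.24, 8.44 and 8.37 in mutants, against 8.54, 8.45, 8.64 and 8.52 in wild-type (-0.18 ± 0.06, adjusted p = 0.98). The highest mutant array, 8.44, was just below the lowest wild-type array, 8.45. In OFT-RV the same lincRNA had a change of -0.17 ± 0.09 with overlapping arrays (adjusted p = 0.90).

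Gm11190, beside the neuronal gene Sez6, read 6.34, 6.65, 6.59 and 6.52 in aSHF mutants, against 6.18, 6.46, 6.23 and 6.34 in wild-type (0.22 ± 0.08). E330013P04Rik, one of the lincRNAs that rank higher in aSHF, read 6.75, 6.70, 6.63 and 6.81 in aSHF mutants, against 6.93, 6.71, 6.84 and 7.03 in wild-type (-0.15 ± 0.07). In both the groups overlapped. The other named ones were higher by 0.11 to 0.23 (1700116B05Rik 0.23, 2210406O10Rik 0.17, A530021J07Rik 0.14, Norad 0.11, Gm10857 0.11, 4933440M02Rik 0.11) or lower (Malat1 -0.16, 6330403K07Rik -0.14, 1700018A04Rik -0.11, D930016D06Rik -0.09, Dancr -0.09, Pvt1 -0.08). Each of these had an adjusted p of 0.98.

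**Figure D3:**
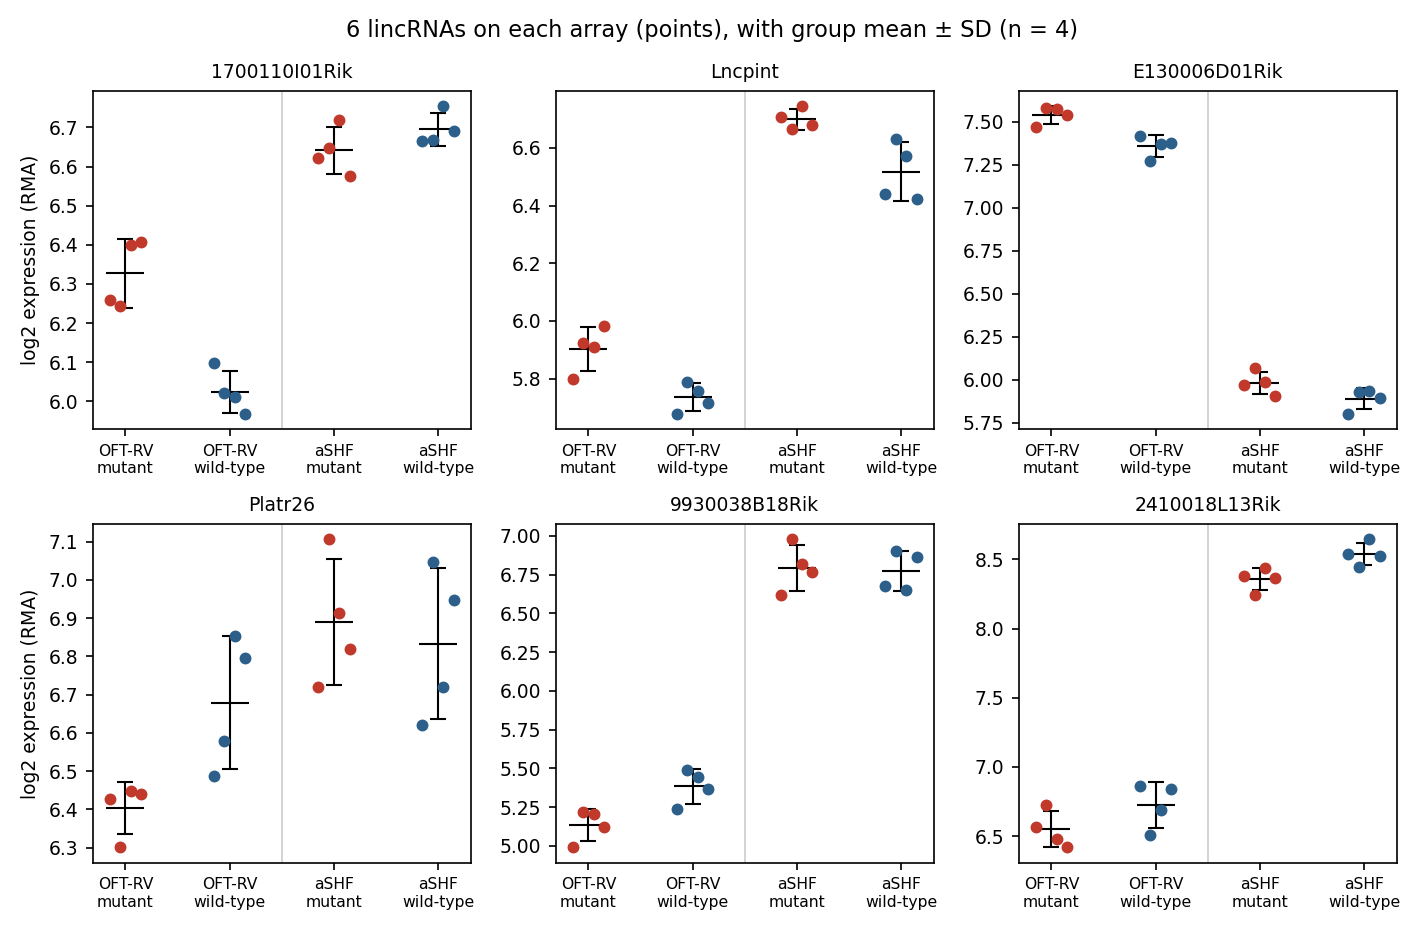
Log2 expression of 6 lincRNAs on every array (points), by tissue, with mutants (red) left of wild-type (blue); bars give the mean and SD of 4 arrays. Levels can be compared only within a tissue. 1700110I01Rik separates the genotypes in OFT-RV (6.24 to 6.41 against 5.97 to 6.10), and Lncpint separates them in both tissues.

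The median lincRNA moved little, in opposite directions in the 2 tissues. In OFT-RV the median change was -0.03 in log2, against -0.01 over all genes, with 55 lincRNAs higher and 112 lower in mutants (32.9% higher, against 42.9% of all genes). In aSHF it was 0.03, against 0.01, with 109 higher and 58 lower (65.3%, against 57.9%). Other genes below the middle rank, where most lincRNAs are, had medians of -0.02 in OFT-RV and 0.03 in aSHF, beside -0.02 and 0.03 for the lincRNAs below it. Above the middle rank in OFT-RV 6 of 24 lincRNAs were higher in mutants (25%, median -0.04), against 46.6% of other genes (median -0.005), and in aSHF 13 of 23 (56.5%, median 0.002), against 43.2% (median -0.01).

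In aSHF 1 array stood apart. As a deviation from the tissue's mean, the median lincRNA stood at 0.12 in aSHF mutant replicate 2, against -0.06 to 0.04 on the 7 other aSHF arrays, and other low-ranked genes on the same array at 0.10. Leaving out 1 array in turn put the median lincRNA change between -0.003 and 0.06 in aSHF and between -0.04 and -0.008 in OFT-RV. Single lincRNAs were spread more widely, with quartiles of change at -0.08 and 0.01 in OFT-RV and at -0.01 and 0.07 in aSHF.

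**Figure D4:**
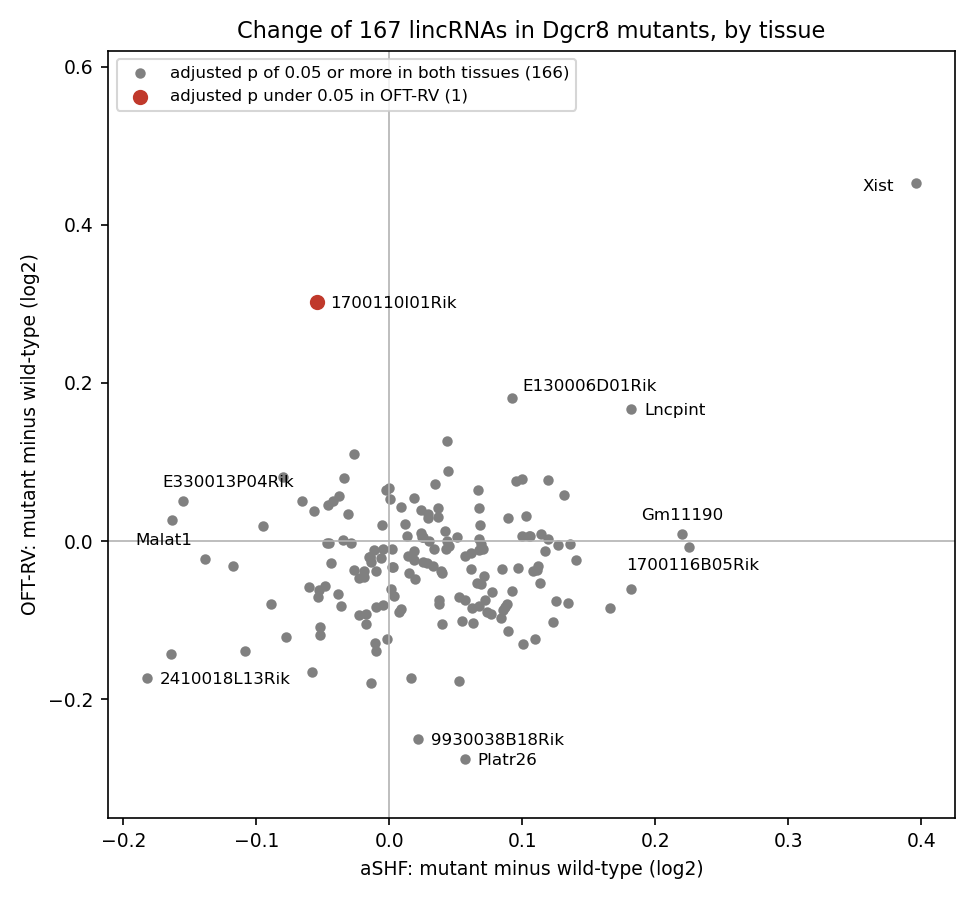
Mutant minus wild-type change (log2) of each of the 167 lincRNAs in OFT-RV (vertical axis) and aSHF (horizontal axis). The red point, 1700110I01Rik, is the 1 lincRNA past an adjusted p of 0.05; Xist lies at the upper right (0.45 in OFT-RV and 0.40 in aSHF) with wide errors, and the rest gather around 0.

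Xist had the largest mean change of all 167 and did not come near the test. In OFT-RV it read 9.35, 9.65, 10.78 and 11.27 in mutants, against 11.50, 9.52, 8.64 and 9.57 in wild-type (0.45 ± 0.55, adjusted p = 0.98). In aSHF it read 10.17, 10.70, 11.89 and 11.94 in mutants, against 12.03, 10.44, 10.03 and 10.61 in wild-type (0.40 ± 0.47, adjusted p = 0.98). In each tissue 3 arrays were high: mutant replicates 3 and 4 and wild-type replicate 1.

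Xist is made in female cells, from the inactive X, and the Y-linked genes Ddx3y, Kdm5d, Uty and Eif2s3y in male cells. The mean of these 4 was lowest on the same 3 arrays: 6.59 and 5.97 in OFT-RV mutant replicates 3 and 4 and 5.05 in wild-type replicate 1, with 7.26 to 7.48 on the 5 others. In aSHF it was 6.92 and 7.04 in mutant replicates 3 and 4 and 5.88 in wild-type replicate 1, with 8.56 to 9.21 on the 5 others. The order of the 8 arrays by Xist was the same in both tissues; whether same-numbered pools of the tissues share embryos is not stated in the labels. The part of this in the change of Xist was not tested; without wild-type replicate 1 that change was 1.02 in OFT-RV and 0.81 in aSHF.

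**Figure D5:**
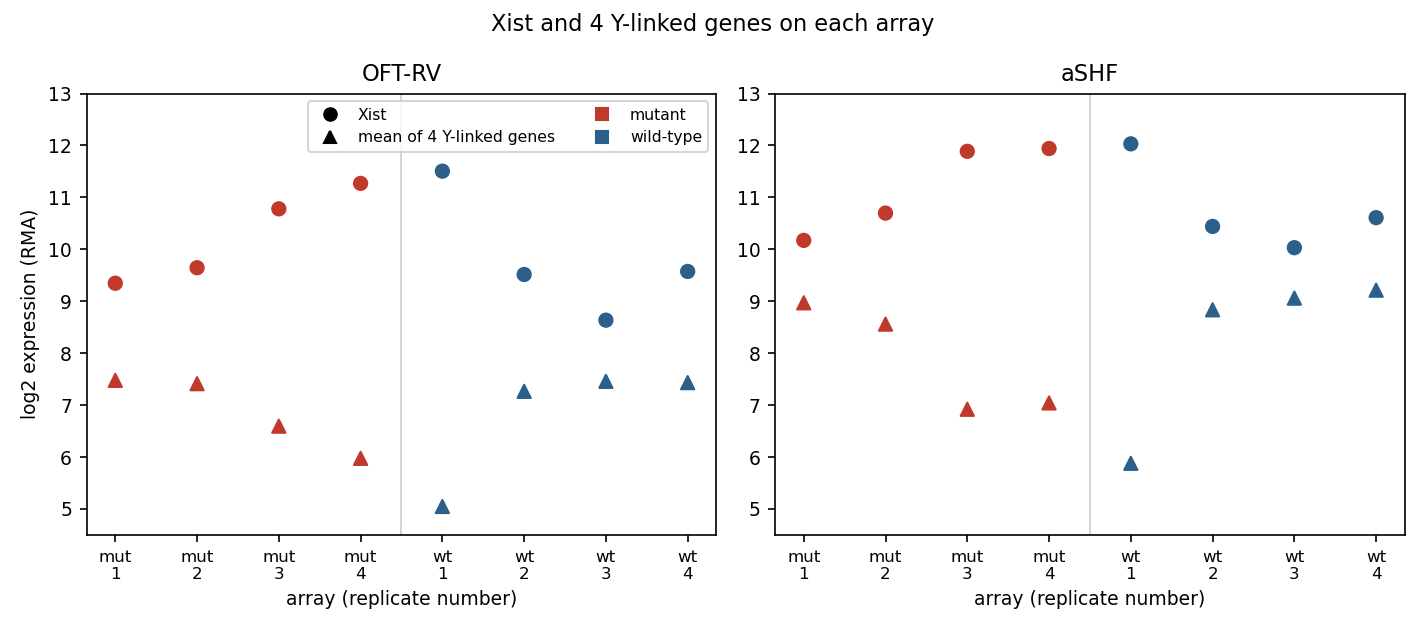
Log2 expression of Xist (circles) and the mean of 4 Y-linked genes (triangles) on each array, mutants (red) left of wild-type (blue), in OFT-RV and aSHF. Mutant replicates 3 and 4 and wild-type replicate 1 have the highest Xist and the lowest Y-linked values in both tissues.

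Among other lincRNAs known by name, Malat1 read 8.90, 9.09, 8.91 and 9.20 in OFT-RV mutants, against 9.06, 8.78, 9.07 and 9.08 in wild-type (0.03 ± 0.09), a sign that depends on single arrays. Hottip had a mean difference of -0.01 in OFT-RV and 0.12 in aSHF, and Pantr1 one of -0.003 and -0.05. Pvt1 had a mean difference of 0.08 in OFT-RV and -0.08 in aSHF. None passed, and in all 4 the groups overlapped in both tissues.

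Proteins that lincRNAs work with were looked at as a list of 33 genes, 32 of them measured: Xist partners, Polycomb subunits, paraspeckle proteins, RNA surveillance enzymes and stabilising factors. None passed in either direction in OFT-RV or aSHF, with limma p under 0.05 for 1 in OFT-RV and 0 in aSHF. The median change was 0.01 in OFT-RV and -0.04 in aSHF, with 22 of the 32 higher in OFT-RV mutants (68.8%, against 42.9% of all genes) and 6 higher in aSHF mutants (18.8%, against 57.9%). Most of the 32 ranked above the middle. Of genes above it other than lincRNAs, 46.6% were higher in OFT-RV mutants and 43.2% in aSHF mutants. Upf1, the helicase of nonsense-mediated decay, was the 1 in OFT-RV (0.12, adjusted p = 0.85). Spen, the Xist silencing factor, had changes of 0.02 in OFT-RV and -0.001 in aSHF, and Ezh2, the Polycomb methyltransferase, 0.01 and -0.03. None of the 148 distinct coding genes nearest to a lincRNA passed limma's test in either tissue, with 11 at an unadjusted p under 0.05 in OFT-RV (7.43%, against 5.83% of all genes) and 10 in aSHF (6.76%, against 2.66%).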

How the data were processed

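RNA of 16 pools was hybridised to Affymetrix gene arrays and of 14 further pools to miRNA arrays, with 1 pool per array. The log2 values were made by the authors with RMA in the oligo package, per the submitters' processing notes, separately for each tissue. The fold and p-value columns of the authors' deposited gene tables were made by the authors and were used only where named. No genome build was found in the labels or headers; 1590 of 1660 mature miRNA locations in the files equal those of RefSeq GRCm38.p6.

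Gene names were joined to the array values by equal mean log2 value and equal mutant change in both tissues (tolerance 1e-06). Of 20889 listed genes, 127 matched several equal-valued probe sets, of which the first was used. The 47 that shared a probe set or were listed again were left out, and 20842 were kept. A further 30 value columns, in 4 other tables, match no label and were not used. Mutants were compared with wild-type in each tissue with limma 3.58.1 (lmFit, eBayes, R 4.3.3), two-sided, with Benjamini-Hochberg adjustment over 20842 genes, and the difference between tissues in a fit of 4 groups. The number of arrays limits the precision; the labels call the replicates biological. On simulated data the test recovered 87 of 100 changes of 0.5 in OFT-RV and 86 in aSHF (log2, 20842 genes). It also called 11 unchanged genes in OFT-RV and 14 in aSHF. The simulation drew each gene independently, without shifts of whole arrays, and held no change smaller than 0.5, so it does not cover the smaller changes described here. Ranks between tissues were described, not tested. The members and all gene lists were chosen with earlier results of these data known. Text names the lincRNAs with the smallest p-values, the largest rank differences, and a list of known ones. No located lincRNA among those kept spans a miRNA gene, so no comparison of hosted mature miRNAs was made. Deviations of same-numbered arrays correlated at -0.09 to 0.67 between mutants and wild-type and at -0.18 to 0.55 between the tissues. Pairing by replicate number was thus uneven and is not settled by these values, and Xist ordered the arrays alike in both tissues.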

Additional observations from a re-analysis of the deposited data

Results flagged for a closer look

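The test of the difference between tissues called 1700110I01Rik, whose change in OFT-RV exceeded its change in aSHF by 0.36 in log2 (adjusted p = 0.0441). The call is lost under several settings given in the next section.

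In 13 of 164 groups of 4 arrays 1 array stood far from the other 3; chance alone gives about 1 in 20 groups. In the OFT-RV mutants the low array read 8.26 for 2900097C17Rik (Norad), 4.71 for AY512931, 5.25 for B230354K17Rik, 4.49 for Hottip and 6.30 for Platr26. In the OFT-RV wild-type group the low array read 4.60 for 1700018A04Rik, 4.91 for 4933440M02Rik and 8.78 for Malat1, and the high array read 6.16 for 2700046G09Rik and 5.85 for B230354K17Rik. In the aSHF mutants the high array read 6.11 for Gm10857. In the aSHF wild-type group the low array read 4.88 for AC157516.1 and the high array 6.47 for AC166112.1.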

How the results depend on the processing

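The lincRNA count rested on 1 gene near the threshold. In OFT-RV 0 lincRNAs passed, in place of 1, with all probe sets, with the replicate block (1700110I01Rik adjusted p = 0.107), with a trend and robust prior (0.0675) and in the authors' deposited table, and 0 to 1 when 1 array was left out. For the difference between tissues 0 passed with the replicate block (0.107). With a block for equal numbers across tissues, chosen after seeing the data, 0 passed too (0.112), and 0 to 1 with 1 array left out. Leaving out dim probe sets removed 1700110I01Rik itself before the fit, because it is dim in aSHF. The 0 that passed in that setting is therefore no test of the call. Same-numbered arrays correlated at -0.09 to 0.67 in aSHF and 0.02 to 0.24 in OFT-RV; the block called 51 genes in aSHF, 95 in OFT-RV and 49 for the difference. Of all genes in aSHF, 37 passed, and 21 with all probe sets, 60 with array weights, 14 without dim probe sets, 18 in the authors' deposited table and 19 to 43 with 1 array left out. Without dim probe sets 54 passed in OFT-RV (in place of 93) and 20 for the difference (in place of 44). Median changes with 1 array left out ran from -0.003 to 0.06 in aSHF, -0.04 to -0.008 in OFT-RV and -0.08 to -0.03 for the difference. At 20 percentile points 6 lincRNAs (4 higher in OFT-RV, 2 in aSHF) and 1577 genes differed in rank. Without dim probe sets 23 lincRNAs were left and were ranked again among 10689 genes. Of these 23, 12 met the rule (5 higher in OFT-RV), against 3 of the same 23 by ranks over all genes. The 12 are given without the share of all genes on this scale, so they are not read as a result about lincRNAs. The sign in OFT-RV turned for Hottip when medians were centred (0.0019) or arrays weighted (0.0039; -0.033 to 0.010 with 1 array left out), for Malat1 with weights (-0.012; -0.047 to 0.068) and for Pantr1 when centred (0.011; -0.039 to 0.018). The cause was not tested. The change of Xist in OFT-RV ran from 0.06 to 1.02 with 1 array left out. Alternatives for hosted mature miRNAs were not run.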
